A study of Rattus norvegicus with 9 samples.

Results

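Hippocampal miRNAs of rats that went through the full course of MK-801 followed by clozapine (CLO) were compared with those of vehicle (VEH) rats. The comparison was chosen by the group labels and takes 6 of the 9 small RNA libraries of the study, 3 a group, and every one of the 633 mature rat miRNAs counted in them. MK-801 (dizocilpine) blocks the ion channel of the NMDA type of glutamate receptor and is used in rodents as a model of schizophrenia. Clozapine is an atypical antipsychotic. The MK-801+CLO rats received MK-801 at 0.2 mg/kg once a day for 14 days and then clozapine at 10 mg/kg for 7 days, all by intraperitoneal injection. VEH rats received saline over the same 14 and 7 days. All were Sprague-Dawley rats, 10 to a group, and the labels put their age at postnatal day 21 in one place and at 5 weeks before dosing in another. The labels' treatment text leaves the agent of the last 7 days in the MK-801+CLO group unnamed, and the study's design text names it as clozapine. The groups differ by both agents, so a difference between them cannot be ascribed to either one. The remaining 3 libraries come from rats given the same MK-801 course and then saline for 7 days, and their levels are given beside some results for orientation. Whether a library stands for 1 rat or a pool is not in the labels. The p-values therefore speak for the spread among these libraries alone, and that spread may be technical.

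A miRNA guides silencing complexes to messenger RNAs mainly through its seed, bases 2 to 8 from its 5′ end, so that miRNAs with the same seed share many targets. The precursor hairpin has a 5p and a 3p arm, either of which can be kept as the mature strand. Several miRNAs are often made from 1 transcript, either as a genomic cluster or inside the intron of a host gene, and many mark a cell type: miR-34b, miR-34c and miR-449 belong to cells with motile cilia such as the ependyma, miR-204 and the miRNAs inside the serotonin receptor gene Htr2c are high in choroid plexus, miR-132 and miR-212 follow neuronal activity through the transcription factor CREB, and miR-126 and miR-143 belong to endothelium and smooth muscle.

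The sequences on which the results turn are given from RefSeq, as RNA and 5′ to 3′, with the seed in capitals. Names of 571 of the 633 miRNAs matched that table. The first set is shown because its members share a seed and did not lie on the same side of VEH. Beneath them are the 3p arms of the miR-34b/34c cluster, whose seed is a different one.
miR-34b-5p: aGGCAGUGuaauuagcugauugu
miR-34c-5p: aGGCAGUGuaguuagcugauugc
miR-34a-5p: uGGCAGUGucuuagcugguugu
miR-449a-5p: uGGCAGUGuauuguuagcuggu
miR-34b-3p: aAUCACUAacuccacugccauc
miR-34c-3p: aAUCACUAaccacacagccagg
MiR-34b-5p and miR-34c-5p differ at 2 of 23 positions, so that reads of the pair could have been split in counting.

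The next set holds miRNAs below VEH that are high in choroid plexus, among them 3 from Htr2c with 3 unlike seeds, and the pair miR-204-5p and miR-211-5p, which share a seed and lay on opposite sides of VEH although they differ at 1 of 22 positions.
miR-1298: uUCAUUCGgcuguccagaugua
miR-448-3p: uUGCAUAUguaggauguccca
miR-764-3p: gAGGAGGCcauaguggcaacugu
miR-204-5p: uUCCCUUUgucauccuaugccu
miR-211-5p: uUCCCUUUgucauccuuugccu

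Another set holds miRNAs of neurons: the miR-7 pair, which differ at 1 of 23 positions, the 3p arm of the miR-7a-2 hairpin, miR-132-3p and miR-212-3p with 1 seed, and miR-128-3p.
miR-7a-5p: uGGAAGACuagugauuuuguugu
miR-7b: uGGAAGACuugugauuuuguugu
miR-7a-2-3p: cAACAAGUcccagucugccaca
miR-132-3p: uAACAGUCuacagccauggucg
miR-212-3p: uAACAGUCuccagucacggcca
miR-128-3p: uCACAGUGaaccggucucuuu

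The last set holds vascular miRNAs and further miRNAs whose libraries did not overlap between the groups. Some stand beside a relative with the same seed whose libraries did overlap. MiR-100-5p and miR-99a-5p differ at 1 of 22 positions. MiR-99a-5p and miR-344a-3p are printed as deposited, with T for U.
miR-126a-3p: uCGUACCGugaguaauaaugcg
miR-126a-5p: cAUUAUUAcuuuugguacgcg
miR-143-3p: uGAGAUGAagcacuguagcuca
miR-100-5p: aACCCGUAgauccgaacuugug
miR-99a-5p: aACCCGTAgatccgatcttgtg
miR-497-5p: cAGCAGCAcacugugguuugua
miR-195-5p: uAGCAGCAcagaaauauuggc
miR-221-3p: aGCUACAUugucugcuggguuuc
miR-222-3p: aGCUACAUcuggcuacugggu
miR-101a-3p: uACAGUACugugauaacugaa
miR-374-5p: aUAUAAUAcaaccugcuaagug
miR-344a-3p: tGATCTAGccaaagcctgactgt
miR-6324: uCAGUAGGccagacagcaagcac

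Depth ran from 11768778 to 18284905 counts in VEH and from 10665718 to 13553902 counts in MK-801+CLO. Levels are CPM, a miRNA's count scaled to a common library total. In the shallowest of the 6 libraries a level of 10 CPM rests on 107 counts, with a 95% Wilson interval of 8.30 to 12.1 CPM, and one of 1000 CPM has an interval of 981 to 1019 CPM. These intervals cover counting error only. Neuron-enriched miRNAs summed to 134433 to 140189 CPM in VEH and 125579 to 145940.0 CPM in MK-801+CLO. Libraries of a group were alike over all tested miRNAs, with Pearson correlations of log2 CPM of 0.9929 to 0.9939 in VEH and 0.9912 to 0.9944 in MK-801+CLO, across miRNAs that are not independent. Pairs made of 1 library from each group had 0.9857 to 0.9941, a range that overlaps those within groups. Of the 332 tested miRNAs at 10 CPM or more, MK-801+CLO replicate 2 was the highest of the 6 libraries for 76 and the lowest for 89, the most of any library on both counts. VEH replicate 3 stood apart for choroid plexus miRNAs, whose sum was 10647 CPM there against 4351 and 2983 CPM in VEH replicates 1 and 2. VEH replicate 2 stood apart for miR-10a-5p, a Hox-cluster miRNA of posterior tissue, at 448 CPM against 119 and 36.3 CPM. Results that rest on these libraries are given with and without them.

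No miRNA passed an adjusted p of 0.05 in edgeR (0 of 469 tested). The smallest adjusted p was 0.0755, for miR-6324. An unadjusted p under 0.05 was found for 70 of 469 (14.9%), 35 above VEH (7.46%) and 35 below (7.46%). With no difference between the groups the expected share is 0.05, and the miRNAs are not independent. Scaled by library totals alone, which put the median of all miRNAs at -0.06, 17 lay above and 46 below. In 84 (17.9%) every MK-801+CLO library lay on 1 side of every VEH library, 44 above (9.38%) and 40 below (8.53%), and 47 met both conditions. With 3 libraries a group and labels set at random, a share of 0.1 would be expected to split in this way. At 10 CPM or more, 10 miRNAs were over 2-fold lower and 0 over 2-fold higher. With 1 library left out these counts were 6 to 12 and 0 to 1, with the 6 found without VEH replicate 3. By another tool, DESeq2, 11 miRNAs (2.35%) passed an adjusted p of 0.05, but 3 (0.64%) without its independent filtering, which leaves out low miRNAs so as to gain calls, and limma voom called 0. The 3 were miR-6324, miR-34c-3p and miR-34b-5p. On the higher side the other 8 held miR-211-5p, miR-143-3p, miR-100-5p and miR-126a-3p. On the lower side they held miR-3552, miR-448-5p, miR-344a-3p and miR-7a-2-3p, and DESeq2 gave all 8 an adjusted p of 0.0490. Leaving out VEH replicate 3 lowered the 70 at an unadjusted p under 0.05 to 38, and leaving out MK-801+CLO replicate 3 lowered them to 34.

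**Figure D1:**
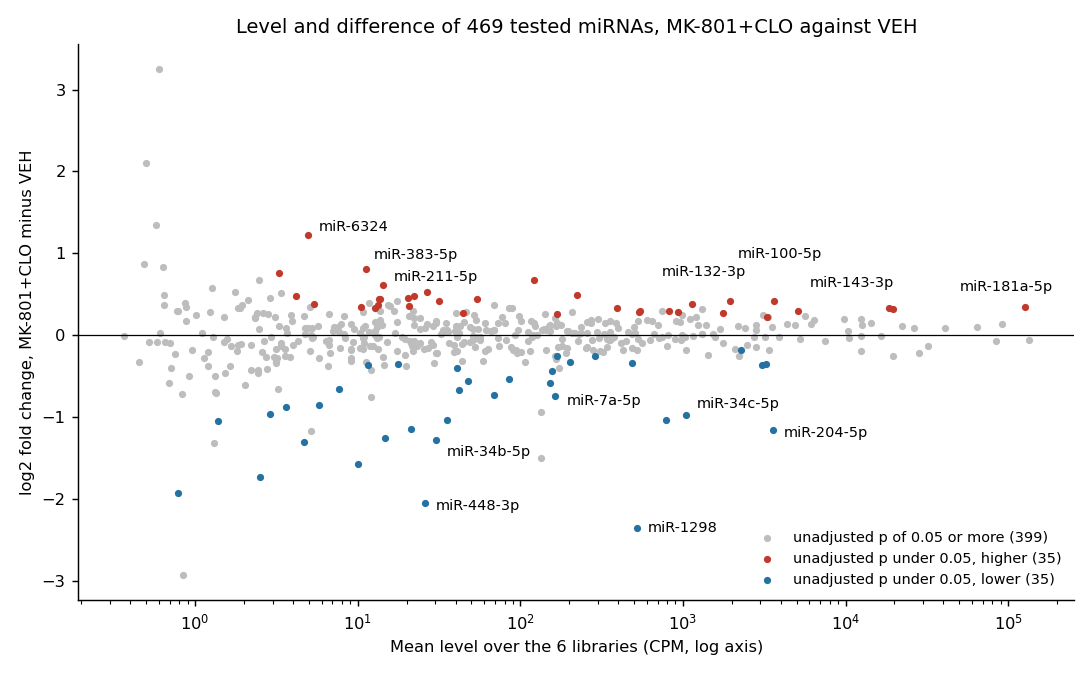
Mean level over the 6 libraries (x axis, CPM, log axis) against the log2 fold change of MK-801+CLO over VEH (y axis) for 469 miRNAs, each a point. Red and blue mark the 35 higher and 35 lower miRNAs at an unadjusted p under 0.05. None passed the adjusted threshold in edgeR, and the points furthest below 0 at 10 CPM or more include miR-1298 and miR-448-3p.

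The tested miRNAs of motile cilia lay below VEH. All 5 tested of the 6 listed had log2 fold changes under 0, from -1.28 to -0.75. Their median was -1.15 against 0.00 for all 469. An unadjusted p under 0.05 was found for 4, against 7.46% of all tested miRNAs on the lower side. These 4 are strands of the miR-34b/34c cluster and are not independent. MiR-34b-5p was at 45.2, 30.4 and 54.0 CPM in VEH replicates 1, 2 and 3, and at 16.9, 23.2 and 11.7 CPM in MK-801+CLO replicates 1, 2 and 3. The lowest VEH library thus lay above the highest MK-801+CLO library. The log2 fold change was -1.28 ± 0.29 (SE, 3 libraries a group, edgeR adjusted p = 0.174). MiR-34c-5p, the abundant strand of its hairpin, was at 1419.6, 1031 and 1759 CPM in VEH and at 533, 1045 and 467 CPM in MK-801+CLO. Replicate 2 of MK-801+CLO reached the VEH range, while the other two were at the bottom, and the log2 fold change was -0.98 ± 0.32 (edgeR adjusted p = 0.205). For the 3p arms the log2 fold changes were -1.26 ± 0.32 for miR-34c-3p, without overlap of the groups, and -1.15 ± 0.35 for miR-34b-3p, with overlap. MiR-449a-5p, a relative that acts with them in the making of cilia, had the same pattern of libraries at 16.9, 8.16 and 20.9 CPM in VEH and 7.37, 14.3 and 5.09 CPM in MK-801+CLO (-0.75 ± 0.39, edgeR adjusted p = 0.390). That value was -1.30 without MK-801+CLO replicate 2, -0.49 without MK-801+CLO replicate 3 and -0.46 without VEH replicate 3. In the rats given MK-801 and saline, miR-34c-5p was at 878, 1425 and 866 CPM.

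Without MK-801+CLO replicate 2 the log2 fold changes of the cluster were -1.59, -1.67, -1.47 and -1.66 for miR-34b-5p, miR-34b-3p, miR-34c-5p and miR-34c-3p, and all 4 passed edgeR at an adjusted p of 0.0466. Without MK-801+CLO replicate 3 they ran from -1.09 to -0.79 and did not pass. The summed level of the cilia list moved with that of the choroid plexus list. In VEH the sums were 1535, 1104 and 1898 CPM for cilia and 4351, 2983 and 10647 CPM for choroid plexus. In MK-801+CLO they were 576, 1115 and 497 CPM and 2200.5, 2794 and 2111 CPM, so that the libraries stood in the same order within each group. Fewer cells of a type and less RNA per cell cannot be told apart in tissue libraries, and the part that tissue makeup had in these differences was not tested.

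MiR-34a-5p has the seed of miR-34b-5p and miR-34c-5p but is transcribed elsewhere, follows p53 and is found in many cell types. It lay above VEH, at 179, 93.2 and 167 CPM in MK-801+CLO against 135, 83.9 and 66.8 CPM in VEH. MK-801+CLO replicate 2, the library highest for the cilia miRNAs, was the lowest of its group here and lay inside the VEH range. The log2 fold change was 0.67 ± 0.29 (edgeR adjusted p = 0.311) and ran from 0.47 without VEH replicate 3 to 1.01 without VEH replicate 1. Counts summed over all miRNAs with this seed lay below VEH in MK-801+CLO replicates 1 and 3, at 736, 1176 and 651 CPM against 1617, 1153 and 1901 CPM (-0.78 ± 0.27, edgeR adjusted p = 0.232 over 385 seeds), and miR-34c-5p held most of that sum.

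Choroid plexus miRNAs held both log2 fold changes under -2 at 10 CPM or more, those of miR-1298 and miR-448-3p. Of 8 tested members, 7 lay below VEH and 1 above, with a list median of -1.23. An unadjusted p under 0.05 was found for 6 of the 7, against 7.46% of all tested miRNAs on the lower side. MiR-1298, miR-448, miR-764-3p and miR-3552 lie inside Htr2c in the GRCr8 annotation, and all were below VEH. Strands from 1 gene are not independent. MiR-1298 was at 482, 272 and 1884 CPM in VEH and at 142, 195 and 156 CPM in MK-801+CLO. The groups did not overlap, and VEH replicate 3 alone was several times above the other VEH libraries. Its log2 fold change was -2.36 ± 0.60 (edgeR adjusted p = 0.174) and -1.14 without VEH replicate 3. MiR-448-3p had 25.5, 17.8 and 83.1 CPM in VEH and 12.2, 11.3 and 6.27 CPM in MK-801+CLO, again with no overlap and 1 library far above the rest (-2.04 ± 0.55, edgeR adjusted p = 0.174, and -1.08 without VEH replicate 3). Its 5p arm miR-448-5p (-1.73 ± 0.50), miR-764-5p (-1.30 ± 0.43) and miR-764-3p (-1.03 ± 0.40) were below VEH too, and were at -1.16, -0.78 and -0.77 without VEH replicate 3. MiR-448-5p and miR-764-5p were low, with means of 2.53 and 4.69 CPM over the 6 libraries. MiR-3552 of the same gene, which is in no list, was at -1.57 ± 0.50, and at -1.08 without that library. The list median without VEH replicate 3 was -0.78, with 2 of its members above VEH. In the rats given MK-801 and saline, miR-1298 was at 169.6, 343 and 198 CPM, and so overlapped both VEH and MK-801+CLO. The choroid plexus list summed to 2768, 3084 and 2864 CPM in these libraries, which overlapped both groups too.

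MiR-204-5p, hosted by the ion channel gene Trpm3 and abundant in choroid plexus and retinal pigment epithelium, was at 3798, 2613 and 8583 CPM in VEH and 1994, 2552 and 1899.8 CPM in MK-801+CLO. VEH replicate 2 and MK-801+CLO replicate 2 were close, and overlapped once scaled by TMM factors (-1.16 ± 0.35, edgeR adjusted p = 0.190, and -0.52 without VEH replicate 3). MiR-211-5p, hosted by Trpm1, lay above VEH, with 12.3, 12.1 and 10.4 CPM in VEH and 21.0, 13.2 and 17.0 CPM in MK-801+CLO. Every MK-801+CLO library lay above every VEH library, at a log2 fold change of 0.62 ± 0.17 (edgeR adjusted p = 0.174), and the levels in MK-801 libraries were 9.08, 12.1 and 10.3 CPM. Without MK-801+CLO replicate 2 it passed edgeR at an adjusted p of 0.0493, with a log2 fold change of 0.74. The level of miR-211-5p was 0.122% to 0.462% of that of miR-204-5p in VEH and 0.518% to 1.05% in MK-801+CLO. Whether the split of reads between them bears on its count was not tested. VEH replicate 3, the library with the most miR-204-5p, had the least miR-211-5p of the 6.

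**Figure D2:**
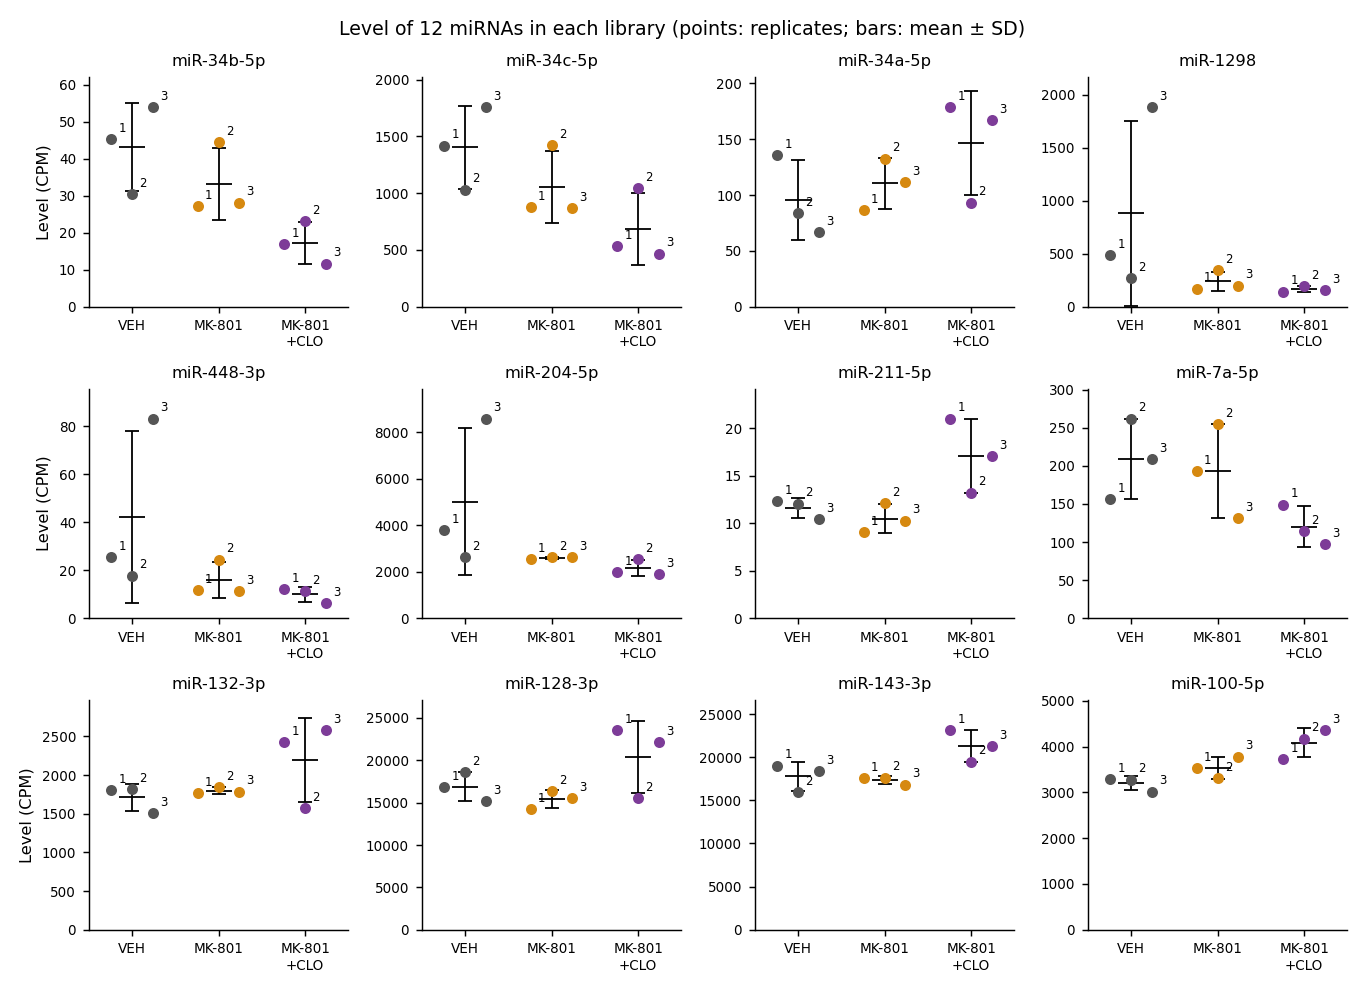
Level of 12 miRNAs in each library (y axes, CPM, linear from 0) by group (x axes). Points are libraries with their replicate number, black bars the mean ± SD of 3 libraries. VEH replicate 3 lies far above the rest for miR-204-5p, miR-1298 and miR-448-3p, and MK-801+CLO replicate 2 lies in the VEH range for miR-34c-5p, miR-34a-5p, miR-132-3p and miR-128-3p.

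The miR-7 family, which is made in neurons and neuroendocrine cells and is bound by the circular RNA Cdr1as, lay below VEH in 3 of 4 members. MiR-7a-5p was at 157, 262 and 209 CPM in VEH and 149, 114 and 96.9 CPM in MK-801+CLO. The groups did not overlap, though VEH replicate 1 and MK-801+CLO replicate 1 were close (-0.74 ± 0.24, edgeR adjusted p = 0.205). MiR-7b followed at 38.6, 65.5 and 53.8 CPM against 39.1, 29.2 and 26.9 CPM (-0.67 ± 0.23, edgeR adjusted p = 0.237). MiR-7a-2-3p, the opposite arm of 1 of the miR-7a hairpins, was at 72.4, 105 and 86.1 CPM against 60.9, 44.4 and 46.8 CPM (-0.73 ± 0.20, edgeR adjusted p = 0.174). Its relative from the other hairpin, miR-7a-1-3p, which lies in the Hnrnpk gene, was at 0.23 ± 0.13, and at 0.15 without MK-801+CLO replicate 2. MK-801 replicate 3, at 132 CPM of miR-7a-5p, was within the MK-801+CLO range, and MK-801 replicates 1 and 2, at 193 and 255 CPM, were within the VEH range.

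The cluster of miR-132 and miR-212, which neuronal activity induces, lay above VEH. All 4 of its strands had log2 fold changes over 0, from 0.20 to 0.49 with a median of 0.36, and 3 had an unadjusted p under 0.05. On the higher side 7.46% of all tested miRNAs had such a p, and strands of 1 cluster are not independent. MiR-132-3p was at 1807, 1815 and 1512 CPM in VEH and 2429, 1574 and 2582 CPM in MK-801+CLO. Replicates 1 and 3 of MK-801+CLO stood above every VEH library and replicate 2 inside their range (0.42 ± 0.16, edgeR adjusted p = 0.256). In the other strands too MK-801+CLO replicate 2 was the lowest of its group, with miR-132-5p at 0.49 ± 0.21, miR-212-3p at 0.30 ± 0.12 and miR-212-5p at 0.20 ± 0.15. The last was at 0.33 without that library and at 0.08 without MK-801+CLO replicate 3. Summed over the seed that miR-132-3p and miR-212-3p share, the level was 2299.7, 2352 and 1979 CPM in VEH and 3082, 2076 and 3193 CPM in MK-801+CLO (0.40 ± 0.14, edgeR adjusted p = 0.235 over 385 seeds). The MK-801 libraries held 1769 to 1847 CPM of miR-132-3p, below MK-801+CLO replicates 1 and 3. Without MK-801+CLO replicate 2, miR-132-3p (0.59) and miR-132-5p (0.70) passed edgeR at an adjusted p of 0.0466, and without MK-801+CLO replicate 3 they were at 0.24 and 0.28.

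The same split of the MK-801+CLO libraries held for some other neuronal miRNAs and not for all. MiR-128-3p, which comes from Arpp21 and R3hdm1 and dampens excitability, was at 16831, 18626 and 15208 CPM in VEH and 23553, 15518 and 22118 CPM in MK-801+CLO (0.33 ± 0.14, edgeR adjusted p = 0.288). MiR-128-2-5p, from the opposite arm of the Arpp21 hairpin, was at 10.9, 13.8 and 10.8 CPM against 15.1, 12.9 and 18.0 CPM (0.45 ± 0.16). These levels overlap, and TMM scaling set the groups apart by a narrow margin. MiR-383-5p was at 0.80 ± 0.27, the furthest above VEH of the neuron-enriched list, and miR-124-3p, a defining miRNA of neurons, at 0.22 ± 0.13. The values of miR-128-2-5p, miR-383-5p and miR-124-3p were 0.28, 0.45 and 0.11 without MK-801+CLO replicate 3. The abundant miR-9a-5p (-0.07 ± 0.09) and miR-218a-5p (-0.25) lay below VEH and had another order. In MK-801+CLO replicates 1, 2 and 3 they were at 89950, 78034 and 73353 CPM and at 2300, 1881 and 1790 CPM. Of 15 neuron-enriched miRNAs 11 lay above VEH and 4 below, with a median of 0.19. The 3 of 15 at an unadjusted p under 0.05 all lay above VEH. Of all tested miRNAs 7.46% had such a p on the higher side and 14.9% on either side. Whether the list differs from that background was not tested. Leaving out MK-801+CLO replicate 2 put that median at 0.32, and leaving out replicate 3 put it at 0.07.

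Vascular miRNAs lay above VEH with small differences and narrow spread. Of 5 tested, 4 lay above VEH and 3 of these did not overlap, where 9.38% of all tested miRNAs lay above without overlap. MiR-143-3p of smooth muscle was at 19039.5, 15929 and 18355 CPM in VEH and 23136, 19492 and 21306 CPM in MK-801+CLO, a log2 fold change of 0.32 ± 0.09 (edgeR adjusted p = 0.180). The arms of the endothelial miR-126a hairpin were both above VEH without overlap. MiR-126a-3p was at 931, 825 and 834 CPM in VEH and 1060.4, 932 and 1021 CPM in MK-801+CLO (0.28 ± 0.09). MiR-126a-5p was at 4744, 4776 and 4506 CPM against 5598, 5054 and 5882 CPM (0.30 ± 0.09, and edgeR adjusted p = 0.205 for both arms). MiR-145-5p, made from the same transcript as miR-143, was at -0.21 ± 0.25, a value that ran from -0.62 without MK-801+CLO replicate 1 to -0.04 without MK-801+CLO replicate 2. The vascular list summed to 21841 to 25140.5 CPM in VEH and 25684 to 30249.8 CPM in MK-801+CLO. Red blood cell miRNAs summed to 3071 to 3563 CPM in VEH and 2973 to 3268 CPM in MK-801+CLO, and their part in the vascular values was not tested.

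Among miRNAs with the miR-99/100 seed, miR-100-5p was the one apart, at 3290.3, 3279.6 and 3019.5 CPM in VEH and 3733, 4174 and 4359 CPM in MK-801+CLO. The groups did not overlap (0.42 ± 0.11, edgeR adjusted p = 0.174), and the difference ran from 0.34 to 0.50 with any 1 library left out. MiR-99a-5p (0.13 ± 0.13) and miR-99b-5p (0.20 ± 0.14) overlapped between the groups, and were at 0.07 and 0.06 without MK-801+CLO replicate 2. Let-7a-2-3p, from a hairpin beside that of miR-100 in the annotation, was also above VEH (0.48 ± 0.19). It was low, with a mean of 4.18 CPM over the 6 libraries. MiR-181a-5p, among the 10 most abundant miRNAs here, was at 124257, 110017 and 108361 CPM in VEH and 121767, 149836 and 143361 CPM in MK-801+CLO (0.34 ± 0.13, edgeR adjusted p = 0.254). MK-801 replicates 2 and 3 were as high, at 139349 and 140255 CPM. The passenger strand miR-181a-1-3p was at 0.38 ± 0.15. Of 8 tested miR-181 strands 7 lay above VEH, with a median of 0.15.

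Further miRNAs above VEH without overlap came from several families. MiR-497-5p, which shares its seed with miR-15, miR-16 and miR-195, was at 366, 331 and 369 CPM in VEH and 412, 460.0 and 413 CPM in MK-801+CLO (0.33 ± 0.10). MiR-195-5p, from a hairpin beside it, was at -0.04 ± 0.11, on either side of 0 as libraries were left out, and miR-16-5p at 0.24 ± 0.12, or 0.14 without MK-801+CLO replicate 3. MiR-101a-3p, which restrains the Polycomb enzyme Ezh2, was at 501, 512 and 473 CPM against 625, 515 and 593 CPM (0.28 ± 0.10), and MK-801 libraries were at 672, 627 and 561 CPM. MiR-101a-5p (0.45 ± 0.13) and miR-101b-3p (0.26 ± 0.11) were above VEH as well. So were miR-339-3p (0.42 ± 0.12), miR-490-3p of the muscarinic receptor gene Chrm2 (0.53 ± 0.19), miR-340-5p (0.27 ± 0.10), miR-24-1-5p (0.44 ± 0.14) and miR-150-5p of lymphocytes (0.30 ± 0.11). The value of miR-490-3p was 0.33 without MK-801+CLO replicate 3. MiR-150-5p was at 835, 712 and 719 CPM in VEH and 1021, 799 and 864 CPM in MK-801+CLO. These levels of miR-150-5p overlap, and TMM scaling set the groups apart by a narrow margin. MiR-6324, a miRNA of low level, had 3.53, 2.55 and 3.01 CPM in VEH and 5.73, 8.44 and 6.49 CPM in MK-801+CLO. All 3 MK-801+CLO libraries lay above all 3 VEH libraries (1.23 ± 0.21, edgeR adjusted p = 0.0755), and MK-801 libraries were as high, at 6.19, 7.40 and 5.64 CPM.

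Among miRNAs below VEH, miR-374-5p, from the Ftx locus of the X inactivation center, had narrow spread. It was at 47.2, 44.0 and 51.6 CPM in VEH and 34.0, 34.8 and 34.97 CPM in MK-801+CLO (-0.40 ± 0.11, edgeR adjusted p = 0.174), while its 3p arm was at 0.25 ± 0.26. MiR-344a-3p was at 91.1, 120.3 and 97.5 CPM against 68.4, 57.7 and 78.6 CPM (-0.53 ± 0.15, edgeR adjusted p = 0.174), and 4 of 5 tested members of the family were below VEH. MiR-221-3p, a brake on the cell cycle inhibitor p27, was at 3608, 3533 and 4008 CPM in VEH and 3146, 2819 and 2452 CPM in MK-801+CLO (-0.35 ± 0.12, edgeR adjusted p = 0.211). Its cluster partner with the same seed, miR-222-3p, was at -0.29 ± 0.17, and at -0.53 without MK-801+CLO replicate 1. MiR-187-3p was at -0.58 ± 0.19, but at -0.35 without VEH replicate 3. MiR-3099 (-0.56 ± 0.20) and miR-320-3p (-0.32 ± 0.12) did not overlap either. For miR-3099, VEH replicate 1 and MK-801+CLO replicate 1 were close, at 47.4 and 46.8 CPM. Its value was -0.43 without VEH replicate 3. MiR-338-5p, the lesser strand of an oligodendrocyte hairpin, was at 1548, 536 and 1116 CPM in VEH and 576, 581 and 354 CPM in MK-801+CLO (-1.03 ± 0.38), and at -0.66 without VEH replicate 1. Its main strand miR-338-3p was at 0.24 ± 0.21, and between 0.04 without MK-801+CLO replicate 2 and 0.41 without MK-801+CLO replicate 1.

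**Figure D3:**
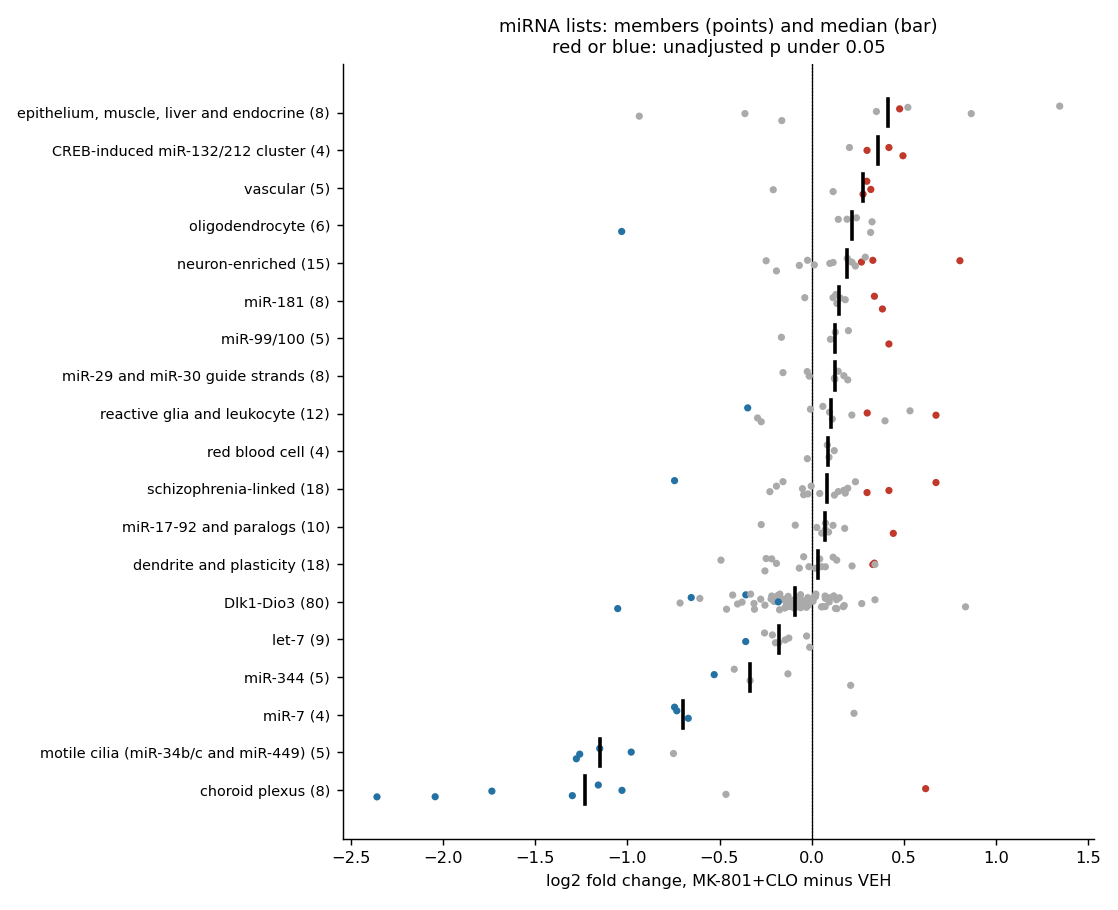
Log2 fold change of MK-801+CLO over VEH (x axis) for members (points) of 19 lists with at least 3 tested members (y axis, number in brackets). Bars are list medians, red and blue points have an unadjusted p under 0.05, and the dotted line is the median of all miRNAs. Choroid plexus (-1.23), motile cilia (-1.15) and miR-7 (-0.70) lie furthest below 0.

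Larger families lay nearer to VEH. The let-7 family, which promotes differentiation, lay below VEH in 9 of 9 members with a median of -0.18. MiR-98-5p was the furthest, at 3608, 3230.4 and 3716 CPM in VEH and 3145, 2712 and 2065 CPM in MK-801+CLO (-0.36 ± 0.13), and the only member without overlap. Let-7c-5p was at -0.26 ± 0.13 and let-7a-5p at -0.20 ± 0.11, or -0.31 without MK-801+CLO replicate 1. The summed family level was 107559, 91894 and 107410.0 CPM in VEH and 101138, 83894 and 76841 CPM in MK-801+CLO, which overlap (-0.16 ± 0.10 for the shared seed). Without MK-801+CLO replicate 3, 2 of the 9 members lay above VEH, and without VEH replicate 1 or 3, 1 did.

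In the imprinted Dlk1-Dio3 region, whose miRNAs are expressed from the maternal chromosome and in neurons, 57 of 80 tested members lay below VEH, against 234 of all 469. The median of this list was -0.09, and 4 had an unadjusted p under 0.05, all below VEH: miR-3072 (-0.65 ± 0.16), miR-377-5p (-0.36 ± 0.13), miR-1188-5p (-1.05 ± 0.41) and the abundant miR-541-5p (-0.18 ± 0.08). MiR-6331, which lies among these miRNAs in the annotation but is not in the list, was also below VEH at such a p (-0.25). Without VEH replicate 3 miR-1188-5p was at -0.58, and its levels were low, at 1.20 to 2.90 CPM in VEH and 0.656 to 1.33 CPM in MK-801+CLO. The 4 of 80 are a smaller share than the 7.46% of all tested miRNAs on the lower side, and than the 14.9% on either side. Of its members 11 lay below without overlap and 3 above, where 8.53% and 9.38% of all tested miRNAs did. With 1 library left out, 17 to 31 members lay above VEH in place of 23.

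Other lists had members on both sides, as did all tested miRNAs, of which 235 of 469 lay above VEH. Of 18 schizophrenia-linked miRNAs 10 lay above VEH (median 0.08), as did 10 of 18 dendrite and plasticity miRNAs (0.03), 5 of 8 miR-29 and miR-30 guide strands (0.12), 8 of 10 of miR-17-92 and paralogs (0.07) and 8 of 12 of reactive glia and leukocytes (0.10). In the last list miR-34a-5p and miR-150-5p were above VEH and miR-221-3p below at an unadjusted p under 0.05. Such a p was found for 7.46% of all tested miRNAs on each side. MiR-21-5p, which reactive glia make, was at 0.22 ± 0.14, or 0.07 without MK-801+CLO replicate 2. Of oligodendrocyte miRNAs 5 of 6 lay above (0.22), but 2 (-0.04) without MK-801+CLO replicate 2. With 1 library left out the count above VEH ran from 5 to 10 for miR-17-92 and paralogs and from 4 to 7 for miR-29 and miR-30. MiRNAs of epithelium, muscle, liver and endocrine tissue summed to 174 to 284 CPM in VEH and 94.1 to 177 CPM in MK-801+CLO. Most of that sum was miR-375-3p, at 238, 133 and 166 CPM in VEH and 91.6, 137 and 41.5 CPM in MK-801+CLO (-0.94). Of the 8 tested 5 were above VEH, with a median of 0.41, or 0.11 without MK-801+CLO replicate 3. The miR-183 cluster had 2 tested members, both below (-0.17, and -0.59 to -0.03 with 1 library left out), and of the Hox list only miR-10a-5p was tested, at -1.50 ± 0.79 and -0.14 without VEH replicate 2. The 10 most abundant miRNAs ran from -0.21 for let-7f-5p to 0.34 for miR-181a-5p. The first, miR-127-3p, was at -0.06 ± 0.11 and crossed 0 as libraries were left out.

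Both strands of a hairpin come from 1 precursor, so the pair shows whether a difference appears in more than 1 count. Both arms were tested for 146 hairpins, and in 91 they lay on the same side of VEH. In 27 hairpins at least 1 arm had an unadjusted p under 0.05, and 20 of these had both arms on the same side. In 9 both arms did, all on the same side: miR-34b, miR-34c, miR-448, miR-764 and miR-31a below, and miR-101a, miR-126a, miR-132 and miR-339 above. Across hairpins, which are not independent and share the 6 libraries, the log2 fold changes of the arms had a Pearson correlation of 0.51 and a Spearman correlation of 0.32. Arms on opposite sides, with 1 at an unadjusted p under 0.05, belonged to miR-338, miR-374, miR-98, miR-34a, miR-195, miR-541 and miR-26a. The rare arm was under 1 CPM in miR-98, miR-34a, miR-541 and miR-26a, so that few counts stand behind it.

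**Figure D4:**
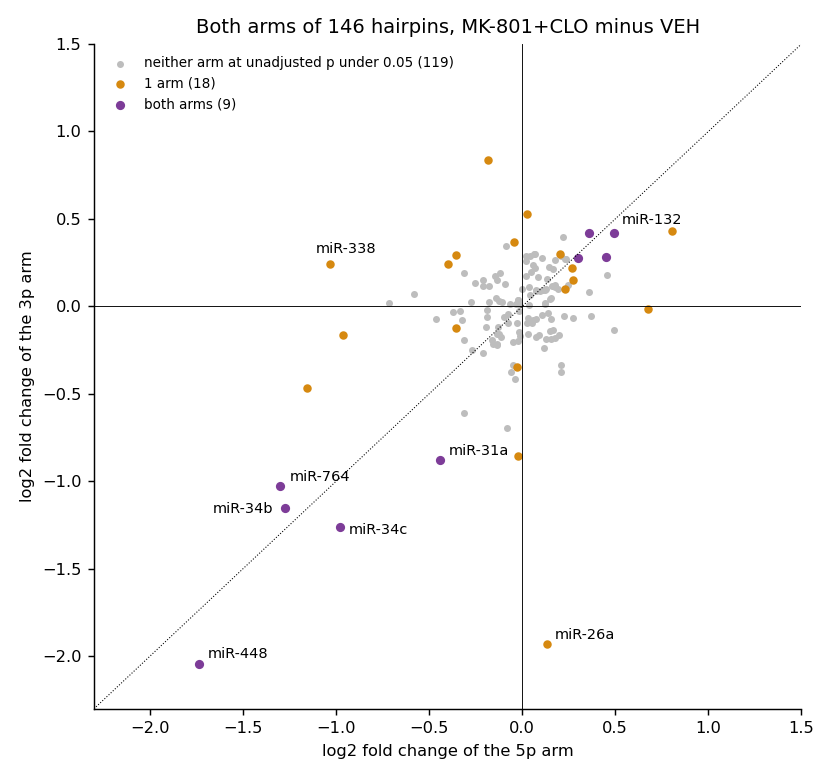
Log2 fold change of the 5p arm (x axis) against that of the 3p arm (y axis) for 146 hairpins, each a point. The 9 hairpins with both arms at an unadjusted p under 0.05 (purple) all lie in the quadrants where the arms share a side, and the dotted line marks equal values.

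Summing counts by seed asks whether the pool of strands that read the same targets differs. Of 385 tested seeds 0 passed an adjusted p of 0.05 in edgeR, and 58 had an unadjusted p under 0.05. Of 51 seeds with at least 2 tested miRNAs, 22 had members on both sides of VEH. The miR-204/211 sum followed miR-204-5p (-1.13 ± 0.36), which holds nearly all of its counts. The miR-7a/7b sum was at -0.72 ± 0.23, miR-221/222 at -0.33 ± 0.11 and miR-101a/101b at 0.29 ± 0.10, each with both members on the same side.

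The log2 fold changes differ in how far they rest on 1 library, as the plot of differences with each library left out shows. Those of miR-374-5p (-0.45 to -0.34), miR-221-3p (-0.41 to -0.29), miR-126a-3p (0.23 to 0.34), miR-143-3p (0.25 to 0.37) and miR-100-5p (0.34 to 0.50) stayed within a narrow range. Those of miR-204-5p, miR-448-3p and miR-1298 were over 1.5 times smaller without VEH replicate 3. Values for miR-132-3p (0.24 to 0.59) and miR-128-3p (0.22 to 0.47) were highest without MK-801+CLO replicate 2 and lowest without replicate 3. All 70 miRNAs at an unadjusted p under 0.05 kept their side of VEH with any 1 of the 6 libraries left out, while 31 to 54 of them kept that p. The 70 were picked by that p from the same libraries, so that keeping their side was likely in advance and is no separate support.

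**Figure D5:**
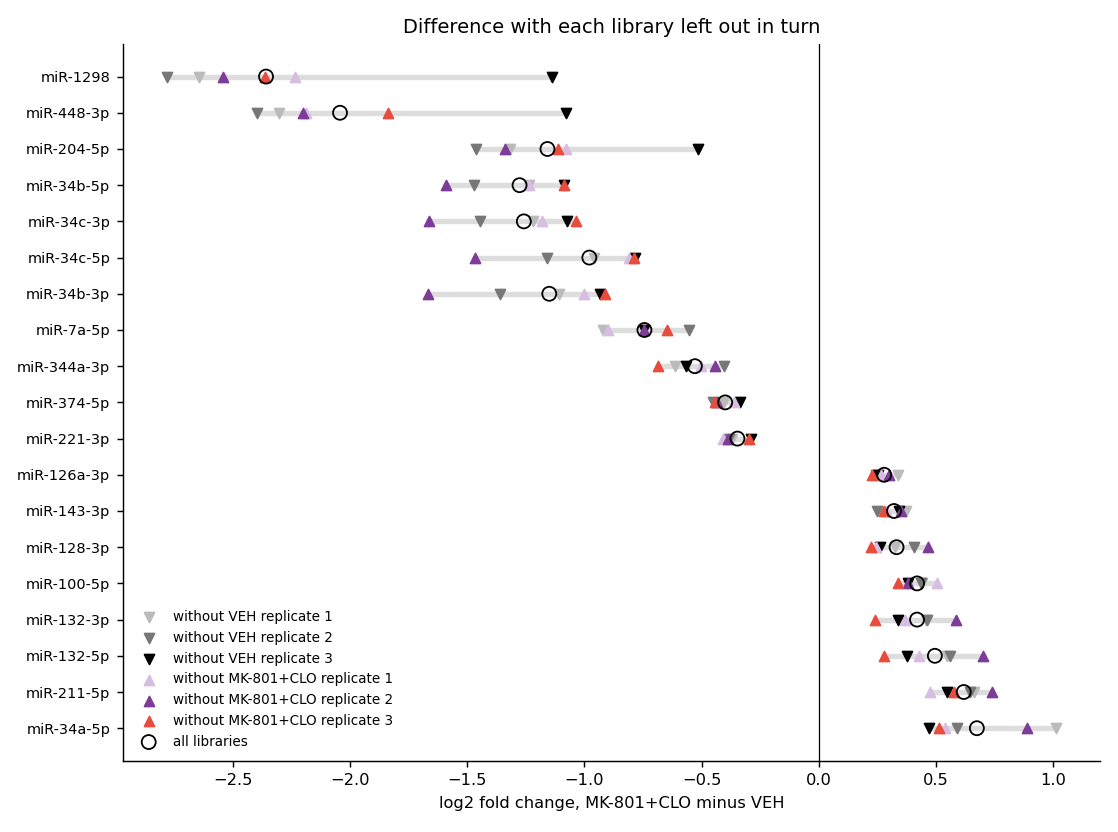
Log2 fold change of MK-801+CLO over VEH (x axis) of 19 miRNAs (y axis) with all libraries (open circles) and with 1 library left out (triangles, pointing down for VEH and up for MK-801+CLO). Grey bars span the 6 fits. MiR-204-5p, miR-448-3p and miR-1298 move toward 0 without VEH replicate 3, and none of the 19 crosses 0.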

How the data were processed

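Small RNA was sequenced from frozen hippocampus. The authors deposited 1 table with whole-number counts per mature miRNA and library and a second set of columns headed TPM. The deposited TPM values equal count over library total (largest relative difference 0.000473%), with no length term, and are called CPM here. Per the submitters' processing notes, the tools were Bowtie, DESeq and cutadapt 1.14, and the build Rnor_6.0, without roles. The counting of reads with more than 1 match was not stated. Blank lines (21) were dropped and 1 split name was rejoined.

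From the counts, edgeR 4.0.16 (R 4.3.3) was run with filterByExpr (469 of 633 miRNAs, 99.997% of counts), TMM factors and quasi-likelihood fits with 1 mean per group over all 9 libraries, so that MK-801 libraries add to the estimate of spread (common biological coefficient of variation 17.2%). P-values were adjusted by Benjamini-Hochberg over all 469. SE is the absolute log2 fold change over the square root of F. Levels are unscaled CPM, and overlap was judged after TMM scaling. The fit was tested on simulated data.

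The comparison, lists and naming rule were chosen with earlier results of these data known. The rule names the 30 miRNAs of smallest p at 10 CPM or more, the other arms of their hairpins, those called by another fit, members of the lists, the 10 most abundant, and the 5 highest and 5 lowest without overlap at 10 CPM or more. Let-7a-2-3p, miR-101b-3p, the hairpins named with the arms and the sums by seed were chosen after values were seen. Alternatives were DESeq2 1.42.0, limma 3.58.1 (voom, and trend on log2(CPM + 1)), other scalings and filters, a replicate block and each library left out. No pair of libraries of a group agreed within sampling noise (chi-square per degree of freedom 263 or more). Sequences and host genes come from RefSeq (GRCr8), another build than the one named by the submitters, so no coordinates are given.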

Additional observations from a re-analysis of the deposited data

How the results depend on the processing

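No miRNA passed an adjusted p of 0.05 in edgeR with all libraries, and none did under voom, limma-trend, RLE, upper-quartile or total scaling, no filter, a 10 CPM filter, a robust fit, removal of the 5 most abundant miRNAs, the 6 libraries alone or the replicate block. DESeq2 called 11, and 3 without independent filtering, a setting added after seeing the data. With 1 library left out edgeR called 0 to 7, the 7 without MK-801+CLO replicate 2. The count at an unadjusted p under 0.05 was 70 (35 above, 35 below VEH), 57 to 80 under other tools, scalings and filters, and 34 (without MK-801+CLO replicate 3) to 84 (without MK-801+CLO replicate 1) with 1 library left out. By library totals, which put the median of all miRNAs at -0.06, it was 17 above and 46 below, and by upper quartile 28 and 40. It was 56 without both VEH replicate 3 and MK-801+CLO replicate 2, a pair chosen after seeing the data. All 70 kept their side of VEH in every setting that gave a value, which was likely in advance, since they were picked by p from the same counts. Replicate numbers showed no sign of pairing libraries: deviations of same-numbered libraries correlated at -0.18, -0.35 and -0.22, and 0 of 6 libraries correlated best with their own number. With the replicate block the counts were 0 adjusted and 64 unadjusted. The cause of these differences between settings was not tested. Part of the named miRNAs were followed one by one across the settings. Of these, 11 at an unadjusted p over 0.05 changed side in at least 1 setting. Many members of the lists were not followed in this way, and some of let-7 changed side as well. MiR-490-5p was at -0.0028 by upper quartile and -0.035 by totals. Ranges with libraries left out were -0.17 to 0.036 for miR-127-3p, -0.10 to 0.022 for miR-181d-5p, -0.11 to 0.029 for miR-195-5p, -0.73 to 0.097 for miR-204-3p, -0.010 to 0.15 for miR-22-3p, -0.15 to 0.035 for miR-221-5p, -0.057 to 0.19 for miR-27b-3p, -0.046 to 0.41 for miR-338-3p, -0.0065 to 0.22 for miR-340-3p, -0.028 to 0.52 for miR-374-3p and -0.077 to 0.11 for miR-490-5p. Depth limits low miRNAs: 3 counts are 0.164 to 0.281 CPM.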
